A study of Homo sapiens with 12 samples.

Results

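The comparison described here is PIAS1 knockdown with androgen present, in VCaP. This human cell line was grown out of a vertebral metastasis of a prostate tumour. Of the 12 arrays in the series, 6 belong to it, chosen by their labels: 3 arrays of siPIAS1 cells with testosterone against 3 arrays of siSCR cells with testosterone. The siPIAS1 group carried a Dharmacon ON-TARGETplus pool against PIAS1 and the siSCR group the control pool. Cells of both groups spent 100 h in medium with 2.5% charcoal-stripped serum, held the siRNA for 96 h and were given 100 nM testosterone for 16 h before RNA was taken. The other 6 arrays are siPIAS1 and siSCR cells without testosterone, 3 of each. The comparison asks which transcripts depended on PIAS1 while the androgen receptor was being stimulated. It was made in 1 cell line with 1 siRNA pool, and the labels number the replicates without saying that they were separate cultures, so p-values measure only the spread between these samples.

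PIAS1 is an E3 ligase of the SUMO pathway: it helps the conjugating enzyme UBC9 attach the small protein SUMO to transcription factors and chromatin proteins. It binds the androgen receptor, which is itself a SUMO target. VCaP cells grow in response to androgen, carry an amplified androgen receptor gene and express ERG from a fusion with the androgen-driven TMPRSS2 gene.

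Levels are normalized log2 signals of 1 probe per gene, differences are siPIAS1 minus siSCR on the log2 scale, each followed by ± its standard error, and p-values are from limma, adjusted by the Benjamini-Hochberg method over 10710 genes. The fold is a lower bound where any array of the dimmer group failed to detect the probe, which means all 3 of them unless a number is given. Between 32.5% and 35.7% of probes were detected on the 6 arrays, and their number limits the precision. Replicate 3 of siPIAS1 with testosterone stood apart. It correlated at 0.978 with both other arrays of its group, which correlated at 0.995 with each other, and the SD over genes of its deviation from them was 0.415, while no other array of the series exceeded 0.263. All 110 genes picked by the naming rule given with the processing and described below kept their call and direction without it. The largest shift among them was 0.38 log2 units, for LRP8. The rule picks large differences and small p-values from these data, which makes such calls likely to be kept. Among all 3586 called genes 82.9% were still called without replicate 3.

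The cells kept a luminal prostate profile. Of 17 luminal markers with a probe, 16 were detected on all 6 arrays, and their summed signal was 132740 to 136847 in siPIAS1 cells with testosterone, against 127997 to 133163 in siSCR cells with testosterone. Among basal markers 6 of 8 were detected on none of the 6 arrays, KRT5 included, and the tested ones summed to 98.5 to 126 in siPIAS1 cells and 142 to 175 in siSCR cells. Of 13 fibroblast and smooth muscle markers 11 were undetected, COL1A1 included, with sums of 811 to 940 in siPIAS1 cells and 675 to 713 in siSCR cells. For blood and endothelial cells 10 of 14 markers were undetected, PTPRC included, and the sums were 1296 to 1395 in siPIAS1 cells and 689 to 772 in siSCR cells, with LYZ, CD68 and CD14 tested and LYZ called higher. The part of other cell types in the results was not tested. In bulk RNA, fewer cells of a type and less RNA per cell cannot be told apart.

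PIAS1 itself was at 10.52, 10.59 and 10.83 in siPIAS1 cells with testosterone, against 11.32, 11.43 and 11.47 in siSCR cells with testosterone. Every siPIAS1 array lay below every siSCR array, and replicate 3 had the highest PIAS1 signal of its group. The difference was -0.76 ± 0.11, or 1.70-fold lower (adjusted p = 1.50e-04), and -0.85 without replicate 3. PIAS1 stayed detected on all 3 siPIAS1 arrays. Among the other SUMO ligases, ZMIZ1, a PIAS-like androgen receptor coactivator, was at 12.09, 11.98 and 11.89 in siPIAS1 cells against 11.09, 10.83 and 10.82 in siSCR cells, a rise of 1.07 ± 0.12 (adjusted p = 2.21e-05). PIAS4, a paralog of PIAS1, rose by 0.52 ± 0.10 (adjusted p = 0.0016).

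Knockdown changed a large share of the measured transcripts, mostly by small amounts. In siPIAS1 cells with testosterone 3586 of 10710 genes differed from siSCR cells with testosterone (33.5% of the genes tested), 1749 of them higher (16.3%) and 1837 lower (17.2%), with a median size of 0.53 among those called. At least 2-fold changes were made by 211 genes upward (1.97%) and 112 genes downward (1.05%), and at least 4-fold changes by 41 upward and 3 downward. The groups did not overlap for 4464 genes (41.7%), among them 321 of the 323 genes called at 2-fold. The median difference over all genes was -0.00099. Without replicate 3 of siPIAS1 the count was 3607 (33.7%), with 1818 higher (17%) and 1789 lower (16.7%), 2973 genes were called in both fits, all in the same direction, and 322 of the 323 called at 2-fold kept their call. The count was smaller without siSCR replicate 2 with testosterone (2380) or replicate 3 (2395), and with only the 6 arrays in the fit (1981).

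**Figure D1:**
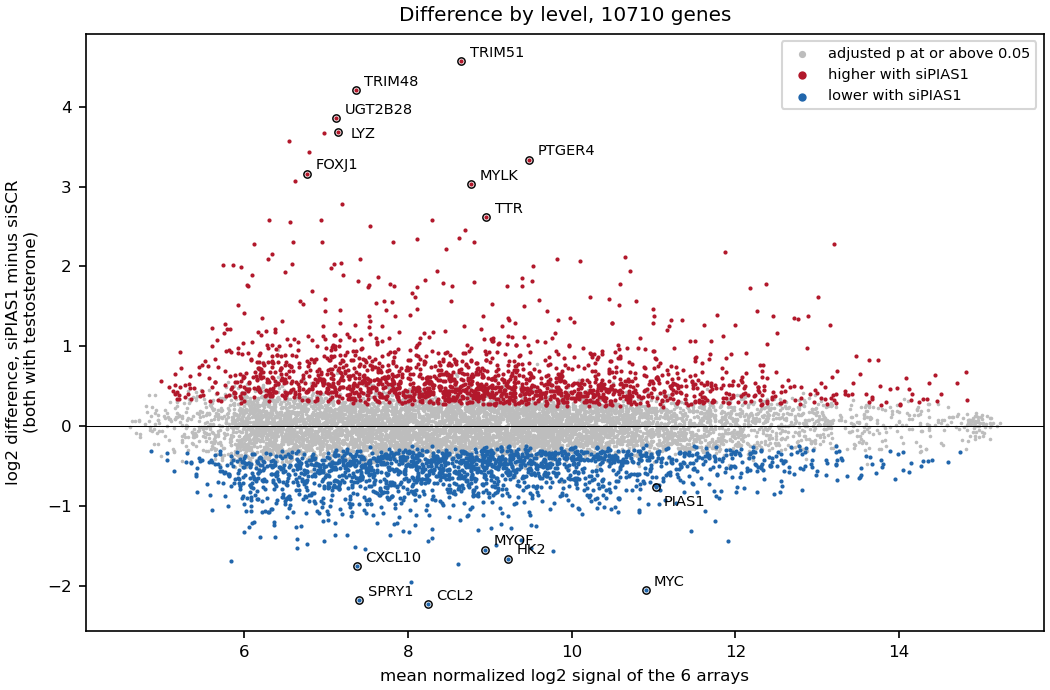
Log2 difference of siPIAS1 minus siSCR cells, both with testosterone, against the mean normalized log2 signal of the 6 arrays; each point is 1 of 10710 genes, coloured where limma's adjusted p is under 0.05. The 211 genes at least 2-fold higher reach larger sizes, up to 4.57 for TRIM51, than the 112 at least 2-fold lower, down to -2.22 for CCL2.

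The largest increase was in TRIM51, a member of a family of tripartite-motif genes with near-identical copies on chromosome 11. Its signal was 10.97, 10.56 and 11.28 in siPIAS1 cells with testosterone, against 6.59, 6.24 and 6.26 in siSCR cells with testosterone, where it was detected on 1 of 3 arrays. The groups were far apart, and the rise was at least 22.9-fold (4.57 ± 0.16, adjusted p = 2.95e-10). TRIM48 was at 9.20, 9.16 and 10.03 in siPIAS1 cells against 4.97, 5.37 and 5.44 in siSCR cells, where it was not detected, a rise of at least 9.01-fold (adjusted p = 1.12e-08). TRIM49D2, TRIM49D1 and TRIM49C, further copies, rose by at least 4.10-fold, 4.65-fold and 3.63-fold, and so did GRM5P1, a glutamate receptor pseudogene on the same chromosome, by at least 5.72-fold. TRIM49, added after its values were seen, averaged 5.33 in siPIAS1 cells and 5.02 in siSCR cells, both with testosterone. It did not pass the test (0.31 ± 0.12, limma adjusted p = 0.0673), but did without replicate 3 (0.38, limma adjusted p = 0.0341). The deposited files hold no probe sequences, so whether probes for these copies can tell them apart is uncertain.

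TRIM51, TRIM48, TRIM49D2, TRIM49D1, TRIM49C and GRM5P1, 6 transcripts, shared a layout across the 4 groups. TRIM51 averaged 10.94 in siPIAS1 cells with testosterone and 6.37 in siSCR cells with testosterone, and 11.14 in siPIAS1 cells without it and 10.90 in siSCR cells without it. It was therefore low in 1 group of 4. GRM5P1 averaged 8.81 and 5.15 in siPIAS1 and siSCR cells with testosterone, and 9.14 and 8.80 in siPIAS1 and siSCR cells without it. None of the 6 passed the test for knockdown without testosterone.

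Some UGT2B enzymes glucuronidate androgens and so inactivate them. UGT2B28 was at 9.21, 8.97 and 9.0 in siPIAS1 cells with testosterone, against 5.02, 5.49 and 5.08 in siSCR cells with testosterone, where it was not detected. It rose by at least 6.79-fold (3.86 ± 0.12, adjusted p = 1.34e-10). UGT2B28 passed the detection filter only through siPIAS1 cells with testosterone, where it was high, so its p-value is not read as support. UGT2B11 was at 9.41, 9.51 and 8.94 in siPIAS1 cells against 6.91, 6.86 and 7.08 in siSCR cells, a rise of 2.34 ± 0.15 (adjusted p = 8.52e-08). Its other probe gave 3.49. UGT2B10 rose by at least 1.38-fold (2.02 ± 0.10) and UGT2B17 by at least 3.54-fold (2.03 ± 0.13), both from signals that were not detected in siSCR cells, but the other detected probe of UGT2B17 differed by 0.16. Both remaining measured UGT2B genes were added after their values were seen. UGT2B4 rose by at least 2.06-fold (2.09 ± 0.13), while UGT2B15, which also glucuronidates androgens, was detected on no array of either group with testosterone and did not pass the test (0.25 ± 0.10, adjusted p = 0.0685). These genes lie on chromosome 4 and are close copies, so the share of each in these signals is uncertain. The 250 bases before the RefSeq start of UGT2B11 and UGT2B10 (GRCh38.p14) are shown because both transcripts rose and the stretches are 90.2% identical over 254 aligned columns. Capitals mark the bases that differ or have no partner in the alignment. UGT2B11 is on the minus strand at chr4:69214749-69214998 and UGT2B10 on the plus strand at chr4:68815744-68815993, each printed 5′ to 3′ along its gene.
UGT2B11: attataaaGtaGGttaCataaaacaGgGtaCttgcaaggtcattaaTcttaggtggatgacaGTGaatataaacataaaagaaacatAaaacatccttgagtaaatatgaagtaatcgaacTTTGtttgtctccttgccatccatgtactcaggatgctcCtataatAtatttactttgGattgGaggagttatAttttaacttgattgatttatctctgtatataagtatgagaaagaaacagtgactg
UGT2B10: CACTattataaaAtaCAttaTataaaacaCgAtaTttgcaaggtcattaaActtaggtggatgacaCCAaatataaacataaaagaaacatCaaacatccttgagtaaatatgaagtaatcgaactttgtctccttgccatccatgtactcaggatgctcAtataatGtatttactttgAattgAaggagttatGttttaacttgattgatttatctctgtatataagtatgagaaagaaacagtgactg
For comparison, the same windows of TRIM51 and TRIM48 were 45.4% identical, against 48.4% for the unrelated pair TRIM51 and UGT2B11.

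LYZ, the antibacterial enzyme lysozyme, was at 8.90, 9.02 and 9.06 in siPIAS1 cells with testosterone, against 5.37, 5.34 and 5.22 in siSCR cells with testosterone. It was not detected on any siSCR array, and the rise was at least 6.50-fold (3.68 ± 0.09, adjusted p = 1.25e-11). LYZ passed the detection filter only through siPIAS1 cells with testosterone, where it was high, so its p-value is not read as support. In contrast to TRIM51, LYZ was high in 1 group of 4: it averaged 4.96 in siPIAS1 cells and 4.77 in siSCR cells without testosterone. PTGER4, a receptor for prostaglandin E2, was at 11.19, 11.30 and 10.97 in siPIAS1 cells against 7.70, 8.0 and 7.75 in siSCR cells, both with testosterone. It was detected throughout and rose 10.1-fold (adjusted p = 1.34e-10). FOXJ1, the transcription factor that sets up motile cilia, was at 8.31, 8.27 and 8.47 in siPIAS1 cells against 4.91, 5.38 and 5.28 in siSCR cells, a rise of at least 4.17-fold (adjusted p = 9.68e-09).

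The remaining genes among the 15 largest increases have varied roles. MYLK, the myosin light chain kinase, rose by 3.03 ± 0.16 by its brighter probe and by 1.23 by the other. VTN, the adhesion protein vitronectin, rose by at least 4.93-fold. TTR, the thyroid hormone carrier transthyretin, was at 10.03, 9.96 and 10.81 in siPIAS1 cells with testosterone against 7.84, 7.29 and 7.81 in siSCR cells with testosterone, a 6.15-fold rise (adjusted p = 4.23e-07). CCDC136 rose 5.98-fold, and CYP4F22, a fatty acid hydroxylase, rose by at least 3.83-fold.

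**Figure D2:**
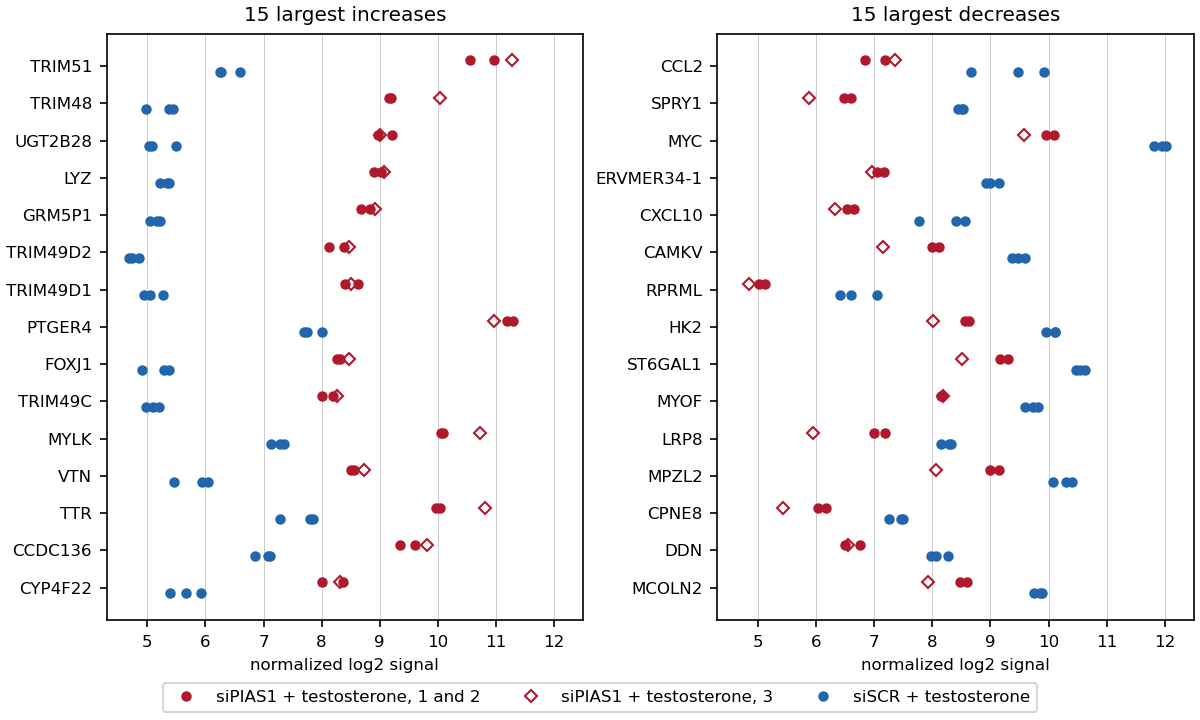
Normalized log2 signal on each array for the 15 largest increases (left) and the 15 largest decreases (right); red marks siPIAS1 cells with testosterone, the open diamond being replicate 3, and blue marks siSCR cells with testosterone. By the naming rule these 30 genes were picked among those whose groups do not overlap, as was so for 41.7% of all genes.

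Decreases were smaller. CCL2, which attracts monocytes, was at 6.84, 7.19 and 7.36 in siPIAS1 cells with testosterone, against 8.66, 9.47 and 9.93 in siSCR cells with testosterone. The groups did not overlap, a condition of the naming rule, and the siSCR arrays were spread over more than a log2 unit. The fall was 4.67-fold (-2.22 ± 0.24, adjusted p = 1.56e-05). CXCL10, an interferon-inducible chemokine for T cells, was at 6.65, 6.53 and 6.32 in siPIAS1 cells against 7.77, 8.41 and 8.57 in siSCR cells, a 3.37-fold fall (adjusted p = 2.02e-05). CXCL8 and CXCL1, which attract neutrophils, fell by 1.21 ± 0.28 (adjusted p = 0.00543) and by at least 1.5-fold (-0.78 ± 0.19, adjusted p = 0.00778), with CXCL1 detected on 1 of 3 siPIAS1 arrays. The other probe of CXCL8 gave -2.20.

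The 250 bases before the start of CXCL10 are shown because CXCL10 is an interferon-inducible gene among the 15 largest decreases. They lie on the minus strand at chr4:76023498-76023747 (RefSeq, GRCh38.p14), and capitals mark the 1 match to the interferon-stimulated response element, searched on both strands as GAAA, any 2 bases and GAAA again, which ends 212 bases before the start.
CXCL10: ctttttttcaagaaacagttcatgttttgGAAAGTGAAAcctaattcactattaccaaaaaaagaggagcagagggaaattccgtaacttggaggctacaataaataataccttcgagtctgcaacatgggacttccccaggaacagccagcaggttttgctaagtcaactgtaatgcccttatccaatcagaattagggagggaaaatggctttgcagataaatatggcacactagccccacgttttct
That motif is in 3.02% of the 35116 RefSeq windows of this length, in 2.16% of the 8653 windows found for genes tested, in 0 of the 10 windows found for the 15 largest increases and in 1 of the 10 found for the 15 largest decreases, which is CXCL10. The androgen receptor half-site AGAACA, on either strand, is in 12.4% of all windows, in 7.29% of those of genes tested, in 1 of 10 for the increases and 0 of 10 for the decreases. These matches describe letters in a window and are not known binding sites in these cells.

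MYC, the growth-promoting transcription factor, was at 10.09, 9.96 and 9.59 in siPIAS1 cells with testosterone, against 12.03, 11.95 and 11.82 in siSCR cells with testosterone. It fell 4.15-fold (-2.05 ± 0.12, adjusted p = 4.52e-08), and its other probe gave -2.17. MYC was lowest in siPIAS1 cells with testosterone among the 4 groups, since it averaged 12.75 in siPIAS1 cells and 13.25 in siSCR cells without testosterone. SPRY1, an inhibitor of receptor tyrosine kinase signalling, was at 6.59, 6.48 and 5.88 in siPIAS1 cells against 8.52, 8.53 and 8.45 in siSCR cells, both with testosterone. It was detected on 2 of the 3 siPIAS1 arrays and fell by at least 4.31-fold (adjusted p = 2.86e-07). HK2, a hexokinase that traps glucose in the cell, was at 8.63, 8.56 and 8.01 in siPIAS1 cells against 9.95, 10.12 and 10.11 in siSCR cells. The fall was 3.16-fold by this probe, but the other probe differed by only -0.46.

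The remaining genes among the 15 largest decreases have varied roles. MYOF, a membrane repair protein of the ferlin family, was at 8.15, 8.18 and 8.18 in siPIAS1 cells with testosterone against 9.73, 9.60 and 9.81 in siSCR cells with testosterone. That is a 2.92-fold fall (adjusted p = 8.07e-08), and its other 2 detected probes ranged from -1.69 to -1.18. ST6GAL1, a Golgi sialyltransferase, fell 2.94-fold, MPZL2, an adhesion protein, 2.89-fold, and MCOLN2, an endolysosomal cation channel, 2.80-fold. LRP8, a receptor for reelin and apolipoprotein E, fell by at least 2.82-fold (detected on 2 of 3 siPIAS1 arrays), and CPNE8, a copine, by at least 2.24-fold. ERVMER34-1, an endogenous retroviral envelope gene, fell 3.88-fold, CAMKV 3.32-fold, DDN 2.85-fold and RPRML by at least 1.36-fold.

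The list counts that follow stand beside 16.3% of all genes tested higher and 17.2% lower. Androgen-regulated genes moved in both directions. Of 35 measured androgen-induced genes 15 were higher and 9 lower in siPIAS1 cells with testosterone (15 and 8 without replicate 3), with a median difference of 0.10. TMEFF2, a transmembrane protein of the prostate, was at 12.91, 12.87 and 13.10 in siPIAS1 cells against 10.80, 10.82 and 10.73 in siSCR cells, a 4.52-fold rise. ADAMTS1, a matrix protease, rose 3.44-fold, ELL2, a transcription elongation factor, 3.31-fold, PLPP1 2.61-fold and HPGD, which breaks down prostaglandins, 2.53-fold. KLK2, a kallikrein protease, was at 13.18, 13.26 and 13.23 in siPIAS1 cells against 13.70, 13.96 and 13.84 in siSCR cells, a fall of 0.61 ± 0.11 (adjusted p = 7.40e-04). TMPRSS2, the promoter donor of the ERG fusion, fell by 0.66 ± 0.09 and ERG by 0.45 ± 0.09. Induced genes were thus found on both sides.

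Of 21 measured androgen-repressed genes 13 were higher and 0 lower with a median of 0.62 (11 and 0 without replicate 3, with a median of 0.41). The UGT2B genes lead this list. UGT2B28 was detected in siSCR cells neither with nor without testosterone, so these arrays do not show it as repressed. Some members of the list were measured only because of the groups in which they were high. With no filter on dim probes 12 of 24 were higher and the median was 0.33, with the authors' log2 values the median was 0.28, and with detection required on all 6 arrays 8 of 11 were higher. DDC, the decarboxylase that makes dopamine and serotonin, was at 8.60, 8.41 and 8.75 in siPIAS1 cells with testosterone against 6.98, 6.96 and 7.17 in siSCR cells with testosterone, a 2.92-fold rise. HES6, a neuroendocrine-linked transcription factor, rose 3.37-fold, and FOLH1, the prostate-specific membrane antigen, rose by at least 1.78-fold, with detection on 2 of 3 siSCR arrays. Among 14 receptor cofactors and pioneer factors 2 were higher and 2 lower, 28.6% called against 33.5% of all genes. GRHL2, an epithelial transcription factor, was at 7.85, 7.51 and 7.74 in siPIAS1 cells against 8.76, 8.72 and 8.76 in siSCR cells, a fall of 1.05 ± 0.11 (adjusted p = 1.44e-05). GATA2 rose by 0.54 ± 0.12 and NCOA2 by 0.68 ± 0.16. The androgen receptor gene itself was not analysed here.

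**Figure D3:**
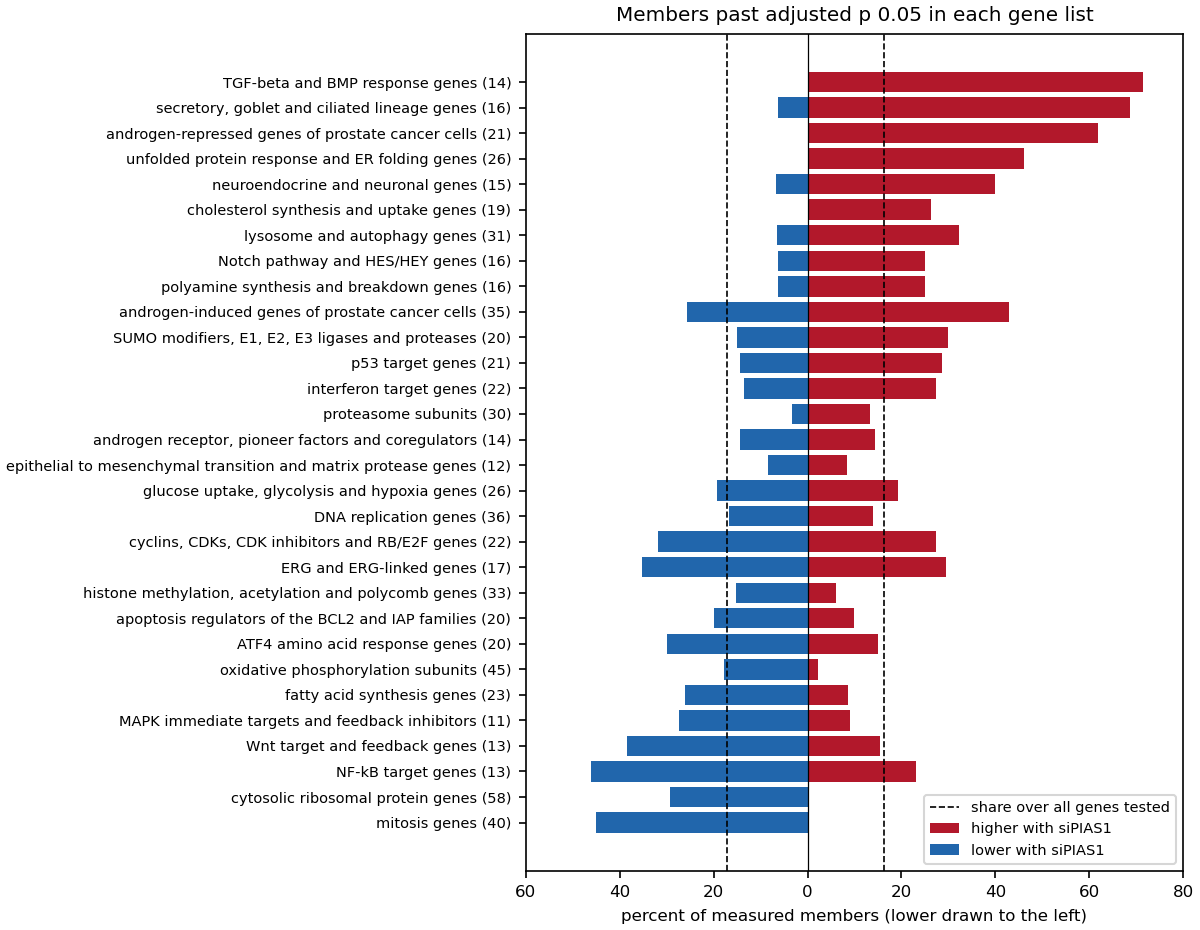
Percent of the measured members of each of 30 gene lists that were called higher (red, right) or lower (blue, left) in siPIAS1 cells than in siSCR cells, both with testosterone; the measured number stands in brackets. Dashed lines give the shares over all genes tested, 16.3% higher and 17.2% lower. TGF-beta and BMP, secretory lineage, androgen-repressed and folding genes lie furthest to the right, and NF-kB and mitosis genes reach furthest to the left.

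Of 14 measured TGF-beta and BMP response genes 10 were higher and 0 lower, with or without replicate 3, and the median was 0.63. With no filter on dim probes 8 of 23 were higher and 0 lower, with a median of 0.32, and with the authors' log2 values the median was 0.26. ID1, an inhibitor of differentiation factors, was at 11.33, 11.01 and 11.67 in siPIAS1 cells with testosterone against 10.45, 9.47 and 9.54 in siSCR cells with testosterone, a rise of 1.51 ± 0.24 (adjusted p = 4.45e-04). ID3 rose by 1.31 ± 0.12. The feedback inhibitors BAMBI and PMEPA1 rose by 0.96 ± 0.12 and 0.64 ± 0.11. SMAD6, another inhibitor, was not detected in siSCR cells and rose by at least 1.16-fold, a call that was lost once undetected signals were raised to the lowest detected one.

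Of 16 measured genes of secretory, goblet and ciliated lineages 11 were higher and 1 lower, with or without replicate 3, and the median was 1.01. LYZ and FOXJ1 belong to this list. MSMB, a major protein of prostatic fluid, was at 8.44, 8.70 and 8.26 in siPIAS1 cells with testosterone against 6.22, 6.38 and 6.52 in siSCR cells with testosterone, a 4.26-fold rise. ATOH1, which directs secretory fate in the gut, rose by at least 1.95-fold, and PGC, an aspartic protease, rose 4.28-fold. PGC averaged 10.87 in siPIAS1 cells and 8.77 in siSCR cells with testosterone, but 5.06 and 5.04 without it. LYZ, FOXJ1 and ATOH1 were below detection on every siSCR array with testosterone and were measured only because of other groups. For LYZ that was siPIAS1 cells with testosterone alone. With no filter on dim probes 11 of 26 were higher and 1 lower, with a median of 0.21, and with detection required on all 6 arrays 6 of 10 were higher.

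In the Notch list 4 of 16 genes were higher and 1 lower (4 and 2 without replicate 3). In the main fit 31.2% were called, against 33.5% of all genes. The higher members of the list include the large changes of ATOH1 and HES6. HES1, the main Notch effector and a repressor, was at 9.82, 9.47 and 10.11 in siPIAS1 cells with testosterone against 8.59, 8.12 and 8.09 in siSCR cells with testosterone, a rise of 1.53 ± 0.18 (adjusted p = 3.49e-05). The ligand JAG1 rose by 0.74 ± 0.16 and the receptor NOTCH3 fell by 0.56 ± 0.12.

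In the NF-kB list 3 of 13 genes were higher and 6 lower (4 and 5 without replicate 3), with a median of -0.31. The 3 higher became 1 without siSCR replicate 3 with testosterone and 1 without siPIAS1 replicate 1 or 2 with testosterone. The median was -0.05 with no filter on dim probes, -0.01 with detection required on all 6 arrays and -0.12 with the authors' log2 values. The chemokines CCL2, CXCL8 and CXCL1 lead the falls, and NFKBIE, an inhibitor of NF-kB, fell by 0.73 ± 0.11. TNFAIP3, a feedback inhibitor, rose by 0.59 ± 0.12 (adjusted p = 0.0025). Of 22 interferon target genes 6 were higher and 3 lower, with or without replicate 3. The 6 higher became 3 without siSCR replicate 1 with testosterone. ISG20, an exonuclease, rose by 1.10 ± 0.12, while TAP2, a peptide transporter of antigen presentation, fell by at least 1.99-fold (detected on 2 of 3 siPIAS1 arrays), so the list had no single direction.

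Of 22 cyclins, CDKs and their regulators 6 were higher and 7 lower (7 and 5 without replicate 3). The 7 lower became 2 without siSCR replicate 2, 3 without siSCR replicate 3 and 4 without siPIAS1 replicate 2, all with testosterone. CDKN1C, which encodes the CDK inhibitor p57, was at 9.80, 9.38 and 9.56 in siPIAS1 cells with testosterone against 7.45, 7.39 and 7.24 in siSCR cells with testosterone, a 4.66-fold rise (adjusted p = 1.12e-08). CDKN1A, which encodes p21, rose by 0.91 ± 0.12, CDKN2D by 0.73 ± 0.10 and the kinase CDK6 by 1.14 ± 0.12. Of 40 mitosis genes 0 were higher and 18 lower (0 and 22 without replicate 3), with a median of -0.26. The spindle checkpoint gene MAD2L1 fell by 0.96 ± 0.12, HMMR by 0.84 ± 0.14, BUB1B by 0.71 ± 0.15, KIF23 by 0.55 ± 0.11 and CEP55 by 0.52 ± 0.09. The 18 became 11 without siSCR replicate 2 with testosterone, 10 without siSCR replicate 3 and 8 with only the 6 arrays in the fit.

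DNA replication genes had 5 of 36 higher and 6 lower, 30.6% called against 33.5% of all genes. The counts were 6 and 5 without replicate 3, but 1 and 3 without siSCR replicate 2 with testosterone. CDC7, a kinase that fires origins, fell by 0.73 ± 0.11 and the clamp loader subunit RFC3 by 0.89 ± 0.15. RRM2, a subunit of ribonucleotide reductase, was 0.48 ± 0.12 higher and the helicase subunit MCM5 0.43 ± 0.12 higher, calls that were lost with only the 6 arrays in the fit, and for MCM5 also without siSCR replicate 2 with testosterone. Of 21 p53 targets 6 were higher and 3 lower (5 and 4 without replicate 3), with BTG1, an antiproliferative gene, up by 0.85 ± 0.10.

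Of 26 genes of the unfolded protein response 12 were higher and 0 lower (12 and 1 without replicate 3), with a median of 0.30, and 8 were higher with scaling to the 75th percentile. MANF, a folding factor of the endoplasmic reticulum, was at 14.01, 13.98 and 14.15 in siPIAS1 cells with testosterone against 13.30, 13.29 and 13.06 in siSCR cells with testosterone, a rise of 0.83 ± 0.11 (adjusted p = 8.42e-05). SDF2L1 rose by 0.77 ± 0.13, the transcription factor CREB3L2 by 0.72 ± 0.10, CRELD2 by 0.67 ± 0.10 and the chaperone HSPA5 by 0.48 ± 0.09. Cholesterol genes had 5 of 19 higher and 0 lower, but 6 and 3 without replicate 3, and 1 and 3 with scaling to the 75th percentile. There INSIG1, HMGCS1 and NSDHL differed by 0.61 ± 0.09, 0.54 ± 0.10 and 0.64 ± 0.11. The INSIG1 and HMGCS1 calls were lost with that scaling.

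Of 26 glucose and hypoxia genes 5 were higher and 5 lower, 38.5% called against 33.5% of all genes. SLC2A3, the glucose transporter GLUT3, was at 11.66, 11.50 and 11.75 in siPIAS1 cells with testosterone against 10.53, 10.29 and 10.23 in siSCR cells with testosterone, a rise of 1.29 ± 0.14, while LDHA, which makes lactate, fell by 0.64 ± 0.11 and CA12, a carbonic anhydrase, by 0.88 ± 0.14. Of 23 fatty acid genes 2 were higher and 6 lower (34.8% called). The elongase ELOVL5 rose by 1.13 ± 0.10, FABP5, a fatty acid carrier, fell by 0.97 ± 0.14, and ACSL4 fell by at least 1.66-fold. Cytosolic ribosomal protein genes had 0 of 58 higher and 17 lower (0 and 18 without replicate 3), with a median of -0.20 (-0.12 without replicate 3) and RPS7 falling by 1.04 ± 0.16 and RPL29 by 0.89 ± 0.16. The 17 became 11 without siSCR replicate 3 with testosterone and 11 with only the 6 arrays in the fit. Across the 23 other settings 0 to 3 were higher and 11 to 24 lower. The median was -0.36 with scaling to the 75th percentile. Oxidative phosphorylation subunits had 1 of 45 higher and 8 lower, 1 and 5 without replicate 3, with 2 lower without siSCR replicate 2 with testosterone and 1 without siSCR replicate 3, and none called with only the 6 arrays in the fit. In the main fit 20% of these oxidative phosphorylation subunits were called, against 33.5% of all genes. Of 30 proteasome subunits 4 were higher and 1 lower (16.7% called). Of 31 lysosome genes 10 were higher, among them the proton pump subunit ATP6V1H by 0.61 ± 0.11, and 2 lower (38.7% called). Of 33 chromatin modifiers 2 were higher and 5 lower (21.2% called). There the histone demethylase KDM4B rose by 0.81 ± 0.16 and the histone-binding protein RBBP7 fell by 0.98 ± 0.11.

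Smaller lists complete the account, beside 33.5% of all genes called. The share called was 36.4% for MAP kinase, 53.8% for Wnt, 45% for ATF4, 46.7% for neuroendocrine and 64.7% for ERG-linked genes. It was 31.2% for polyamine, 30% for BCL2 and IAP family, 16.7% for matrix and mesenchymal and 45% for SUMO pathway genes. Of 11 MAP kinase targets and feedback genes 1 was higher, DUSP1, and 3 were lower, MYC, SPRY1 and EGR1, the last by 0.86 ± 0.15. Wnt genes had 2 of 13 higher and 5 lower, with or without replicate 3, and the higher ones became 0 without siSCR replicate 2 with testosterone. In the ATF4 amino acid response list 3 of 20 were higher and 6 lower (2 and 8 without replicate 3), with the lipoprotein receptor VLDLR up by 1.33 ± 0.12 and the secreted hormone STC2 down by 0.81 ± 0.09. Neuroendocrine and neuronal genes had 6 of 15 higher and 1 lower, led by DDC, and ERG-linked genes 5 of 17 higher and 6 lower. Polyamine genes had 4 of 16 higher and 1 lower, BCL2 and IAP family genes 2 of 20 higher and 4 lower (5 and 4 without replicate 3), matrix and mesenchymal genes 1 of 12 higher and 1 lower, and genes of the SUMO pathway, PIAS1 included, 6 of 20 higher and 3 lower (5 and 2 without replicate 3, 3 and 1 without siSCR replicate 2 with testosterone). Among the SUMO proteases SENP7 was 0.42 ± 0.12 higher and DESI1 0.33 ± 0.10 higher, calls that were lost with only the 6 arrays in the fit. Luminal markers had 6 of 17 higher and 2 lower, with KRT8 up by 1.03 ± 0.13 and STEAP1 by 0.68 ± 0.15. The tested basal markers had 0 of 2 higher and 1 lower, fibroblast markers 1 of 3 higher, and blood and endothelial markers 1 of 3 higher, which is LYZ.

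Knockdown was set beside the same knockdown without testosterone, which shares no array with it. Without testosterone 1428 genes were called (13.3% of those tested), 810 higher (7.56%) and 618 lower (5.77%). The count is sensitive to replicate 3 of siPIAS1 with testosterone, which enters the shared error estimate, and was 2481 without it. In both settings 390 genes were higher and 345 lower, which is 20.5% of the genes called with testosterone and 51.5% of those called without it, and 87 were called in opposite directions. Across genes, which are not independent replicates, the 2 differences correlated at 0.404. Of the 211 genes at least 2-fold higher with testosterone 31 were also at least 2-fold higher without it, and of the 112 at least 2-fold lower it was 2. These overlaps, and the list counts without testosterone, were made only with replicate 3 of siPIAS1 with testosterone in the fit.

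The difference between the knockdown effects was itself tested as an interaction and passed for 1065 genes (9.94%), 4.88% of all genes upward and 5.06% downward, of which 875 were called with testosterone. It passed for 147 of the 211 genes at least 2-fold higher and 76 of the 112 at least 2-fold lower. Those genes were picked for a large difference with testosterone, which enters the interaction, so these shares are not read as support. Leaving out 1 array gave 656 to 1506 genes, and 1438 where that array was replicate 3 of siPIAS1 with testosterone. The interaction counts of these subsets and of the lists below were made only with that replicate in the fit. LYZ had the smallest p, with a difference of 3.68 with testosterone and 0.19 without it (adjusted p of the interaction = 2.85e-09). Without testosterone it was detected in neither group. It passed the detection filter only through siPIAS1 cells with testosterone, so its rank by p is not read as support. SLC4A4, a bicarbonate cotransporter, changed direction. It was at 7.67, 7.65 and 7.95 in siPIAS1 cells against 5.57, 5.36 and 5.42 in siSCR cells with testosterone, a rise of at least 2.76-fold, and at 7.18, 6.84 and 7.18 in siPIAS1 cells against 7.77, 7.68 and 7.65 in siSCR cells without testosterone, a fall of 0.63 ± 0.12 (adjusted p = 0.00368). PNLIP, pancreatic lipase, rose by at least 2.19-fold with testosterone and was detected in neither group without it. Like LYZ, it passed the detection filter only through siPIAS1 cells with testosterone.

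Other genes moved in the same direction in both settings. PIAS1 was lower by 0.76 with testosterone and by 1.21 ± 0.11 without it. The interaction did not pass for PIAS1 (0.44 ± 0.15, adjusted p = 0.0800). MSMB differed by 2.09 with testosterone and 1.84 without it, ATOH1 by 2.28 and 1.85, ZMIZ1 by 1.07 and 1.10, HES6 by 1.75 and 1.69, CDKN1A by 0.91 and 0.94, and DUSP1, a MAP kinase phosphatase, by 0.97 and 0.95. For PIAS1 and these 6 genes the interaction did not pass, which does not show that the effects are equal. KLK2, in contrast, was lower by 0.61 with testosterone and higher by 0.50 without it (adjusted p of the interaction = 3.50e-04). Without testosterone, DNA replication genes had 0 of 36 higher and 19 lower, mitosis genes 0 of 40 higher and 14 lower, TGF-beta and BMP genes 2 of 14 higher and 0 lower, and folding genes 1 of 26 higher and 1 lower. Androgen-induced genes had 14 of 35 higher and 3 lower without testosterone, and androgen-repressed genes 9 of 21 higher and 2 lower. For secretory, goblet and ciliated lineage genes it was 10 of 16 higher and 1 lower. Over all genes without testosterone 7.56% were higher and 5.77% lower. The interaction was positive and passed for 9 of the 36 replication genes, 4 of the 14 TGF-beta and BMP genes and 7 of the 26 folding genes. It was positive and passed for 10 of the 35 androgen-induced, 8 of the 21 androgen-repressed and 3 of the 16 secretory lineage genes. In that order it was negative and passed for 5, 1 and 3 genes. Over all genes 4.88% passed upward and 5.06% downward.

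**Figure D4:**
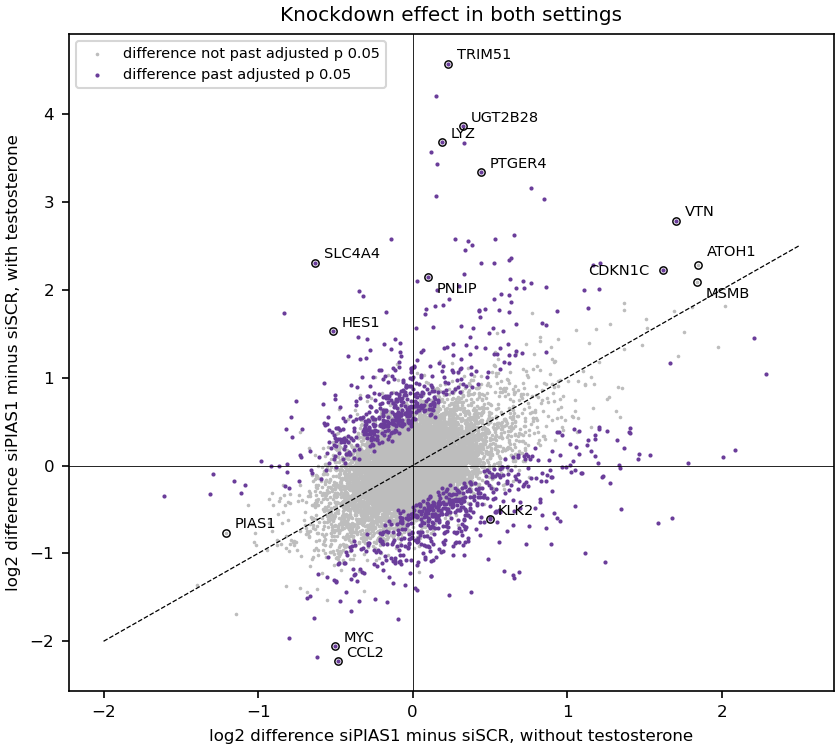
Log2 difference of siPIAS1 minus siSCR cells with testosterone (vertical) against the same without testosterone (horizontal), 1 point per gene; purple points passed the interaction test and the dashed line marks equal differences. TRIM51, UGT2B28, LYZ and PTGER4 lie near 0 on the horizontal axis, at 0.23, 0.32, 0.19 and 0.44, and above 3 on the vertical axis. UGT2B28 and LYZ were detected in neither group without testosterone.

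**Figure D5:**
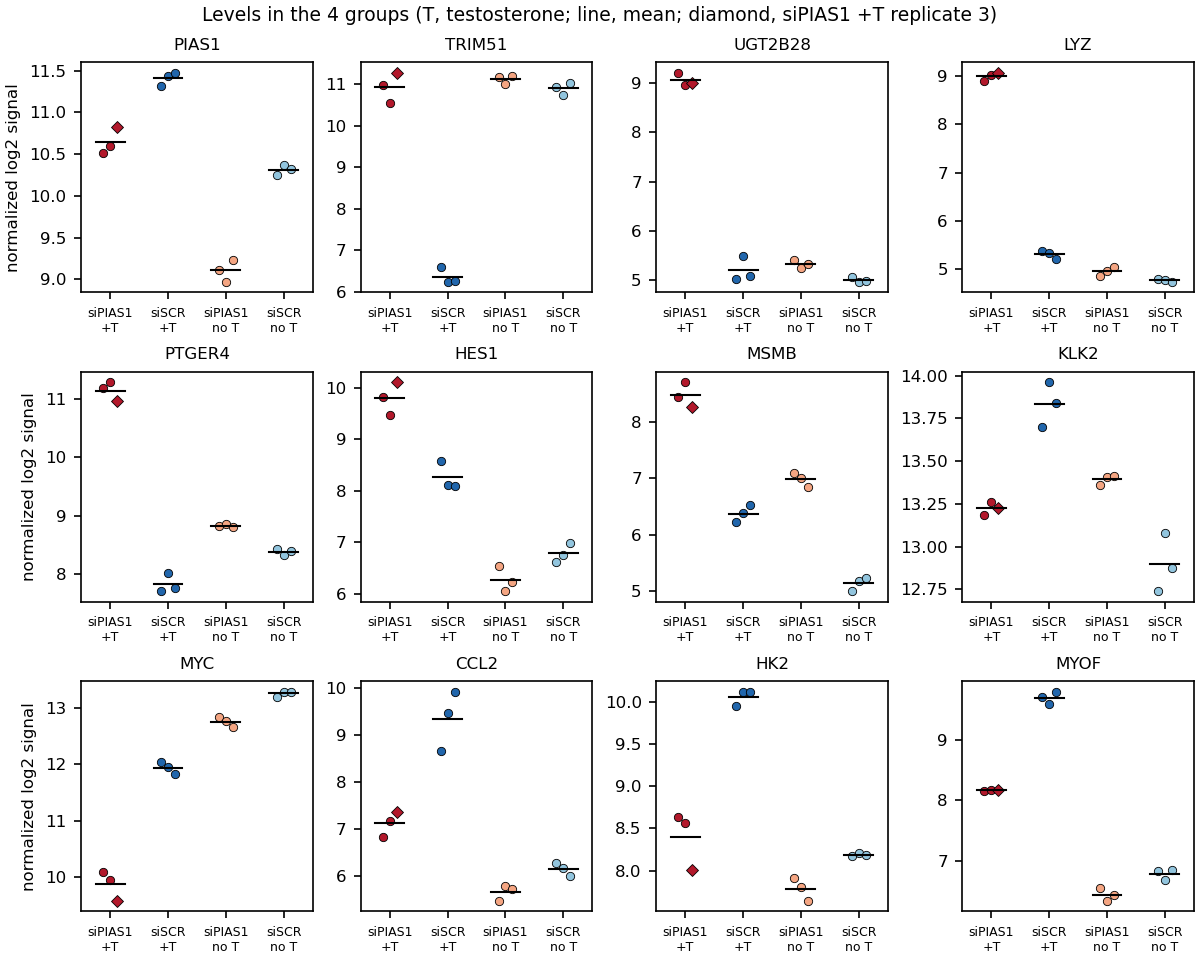
Normalized log2 signal of 12 genes on each array in the 4 groups, with T for testosterone, a line at the mean of 3 arrays and a diamond for siPIAS1 with testosterone replicate 3; each panel has its own vertical range. TRIM51 is low in siSCR cells with testosterone alone, UGT2B28 and LYZ are high in siPIAS1 cells with testosterone alone, and MYC is lowest in siPIAS1 cells with testosterone.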

How the data were processed

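Per the file headers, scanner intensity values were deposited without normalization for 47323 probes on 12 Illumina bead arrays, each with a detection p-value, also deposited. A second deposited table holds the authors' log2 values. It was made with lumi, per the submitters' processing notes, whose version and settings are not stated. Its columns ranked probes exactly as the signals did, with medians of 7.60 to 7.61 and uncentred genes, but its exact transform stays unknown, and it served only as an alternative.

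Here the signals went through neqc of limma 3.58.1 (R 4.3.3), which corrects the background from the detection p-values, normalizes by quantiles and adds an offset of 16 that compresses folds at low signal. Probes with a detection p under 0.01 on at least 3 arrays were kept (17835). Names came from the platform annotation (30113 probes with 1 gene, 8 with several, 17202 with none listed), updated through RefSeq GRCh38.p14. The brightest probe over 12 arrays stood for a gene, which left 10710 genes. For 930 called genes with further detected probes, all of these had the same sign in 824.

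A single limma fit of 4 group means used all 12 arrays (8 residual and 5.77 prior degrees of freedom), with two-sided p-values, Benjamini-Hochberg adjustment over all genes and a threshold of 0.05. With 3 arrays in each group, exact permutation p-values start at 0.1, so none are given. The median standard error was 0.126. For a lower bound on a fold, each array of the dimmer group took its probe's own value or the lowest detected signal, whichever was higher. The fit was tested on simulated data. Alternatives changed background, offset, scaling, filter, probe choice, samples, array weights and replicate block, and left out each array.

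The text names PIAS1, the 15 largest increases and 15 largest decreases among called genes whose groups do not overlap and whose brighter group was detected throughout (symbols starting with LOC left out), the 8 called genes with the smallest interaction p, up to 5 members of each of 34 gene lists by smallest p, and marker genes. The comparison and the lists were chosen with earlier results of these data known. No 2 arrays held identical values.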

Additional observations from a re-analysis of the deposited data

Results flagged for a closer look

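For 68 of the 110 genes that the naming rule picked and the report describes, the difference between siPIAS1 and siSCR cells with testosterone was itself different from that without testosterone, by limma's interaction contrast with Benjamini-Hochberg adjustment over all genes. Each value is the log2 difference with testosterone minus that without it. The interaction passed for 9.94% of all genes tested, and the named genes were picked for large differences with testosterone, so their number says nothing about the share among all genes. Groups of 3 arrays are too small to be checked for a single outlying array by the ratio used for larger groups.

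Values above 2 were 4.34 for TRIM51, 4.06 for TRIM48, 3.54 for UGT2B28, 3.5 for LYZ, 3.45 for TRIM49D2, 3.34 for GRM5P1, 3.28 for TRIM49D1, 2.94 for SLC4A4, 2.91 for TRIM49C, 2.89 for PTGER4, 2.40 for FOXJ1, 2.30 for CYP4F22, 2.18 for MYLK, 2.07 for PGC, 2.05 for HES1, 2.05 for PNLIP and 2.05 for CCDC136. All are differences of measured signals, and their order is not read where a group was below detection. Of these genes TRIM48, TRIM49D2, GRM5P1, TRIM49D1, SLC4A4, TRIM49C, UGT2B28, LYZ, FOXJ1, CYP4F22 and PNLIP were detected on no siSCR array with testosterone, and TRIM51 on 1 of 3. Without testosterone UGT2B28, LYZ, CYP4F22, PNLIP and PGC were detected in neither group, so the detection floor limits their values here. Their rise was measured with testosterone. UGT2B28, LYZ, CYP4F22 and PNLIP passed the detection filter only through siPIAS1 cells with testosterone. Values between 1 and 2 were 1.96 for TTR, 1.84 for TMEFF2, 1.72 for UGT2B11, 1.70 for ADAMTS1, 1.65 for ELL2, 1.30 for UGT2B10, 1.24 for SLC2A3, 1.17 for UGT2B17, 1.13 for VLDLR, 1.12 for ELOVL5, 1.11 for SDF2L1, 1.08 for VTN and 1.05 for RRM2. MANF, a folding factor, and PIAS4, a paralog of PIAS1, are among the smaller positive values, which were 0.97 for MANF, 0.96 for SMAD6, 0.91 for MCM5, 0.88 for JAG1, 0.88 for HPGD, 0.80 for ISG20, 0.77 for PLPP1, 0.75 for GATA2, 0.75 for DESI1, 0.72 for FOLH1, 0.71 for BTG1, 0.66 for CRELD2, 0.64 for ID3, 0.60 for PIAS4, 0.60 for CDKN1C and 0.55 for HSPA5.

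Negative values were -1.74 for CCL2, -1.66 for CXCL10, -1.56 for SPRY1, -1.55 for MYC, -1.40 for ST6GAL1, -1.28 for CPNE8, -1.26 for HK2, -1.20 for MYOF, -1.20 for GRHL2, -1.16 for ERVMER34-1 and -1.11 for KLK2. Further negative values were -1.09 for CAMKV, -1.07 for LRP8, -0.97 for EGR1, -0.91 for ACSL4, -0.88 for FABP5, -0.83 for DDN, -0.82 for MCOLN2, -0.80 for STC2, -0.77 for RBBP7, -0.75 for CA12 and -0.56 for TMPRSS2. KLK2 and GRHL2 were lower with testosterone, by 0.61 and 1.05, and differed by 0.50 and 0.15 without it.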

How the results depend on the processing

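Under 23 other settings, 103 of the 110 genes picked by the naming rule and described in the report kept their direction and stayed past the threshold in each setting that could be fitted, and 2490 of 2505 pairs of gene and setting did. Those genes were picked for large differences and small p-values, so these shares say nothing about all called genes. The 15 losses were of SMAD6 with undetected signals raised, SENP7 with the authors' log2 values, DESI1, HMGCS1 and INSIG1 with 75th percentile scaling, RRM2, MCM5, SENP7 and DESI1 with only the 6 arrays compared, and MCM5, SENP7 or DESI1 with 1 of 4 arrays left out; none turned direction. Beside 3586 genes called (1749 higher, 1837 lower), the 6 arrays alone gave 1981 (973 higher, 1008 lower), where fewer arrays set the error. Leaving out each array gave 2380 to 3753 genes, 1149 to 1833 higher and 1231 to 1926 lower. At least 2-fold higher were 211 genes, with 199 to 251 on leaving out an array, 122 without background correction and 84 with the authors' values. At least 2-fold lower were 112, with 93 to 171 on leaving out an array, 31 without background correction, 56 with an offset of 50, 20 with the authors' values and 74 with detection on all 6 arrays; an added offset or uncorrected background compresses folds by construction. The interaction passed for 1065 genes, with 656 to 1506 on leaving out an array and 2612 with array weights. Without testosterone 1428 were called, with 765 to 2481 on leaving out an array and 3357 with array weights, which gave replicate 3 of siPIAS1 with testosterone a weight of 0.118, against at least 0.413 for the others. The cause of the other shifts was not tested. With the replicate number as a block 3410 genes were called and no named call was lost. Samples sharing a number deviated together only weakly (correlations of 0.096, 0.195 and 0.021 in the 2 groups compared). With 3 arrays in each group these values cannot show whether the numbers pair the samples. List counts moved by over 1.5 times in 72 of 782 pairs of list and setting. Scaling to the 75th percentile shifted the median of all genes to -0.036. A slide block was not run because the files name no slides. Signal over background limits the folds, since 43 of the genes at least 2-fold higher were below detection on every siSCR array with testosterone and 22 of those at least 2-fold lower were below detection on every siPIAS1 array with testosterone.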

Other observations

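Several gene families were counted after their values had been seen, so their counts describe these arrays and carry no test of the family. Over all genes 16.3% were higher and 17.2% lower with testosterone, and 7.56% and 5.77% without it. Of 58 ribosome biogenesis and nucleolar genes 0 were higher and 42 lower in siPIAS1 cells with testosterone, the same counts as without replicate 3, where 17.2% of all genes were lower. Their median difference was -0.57, and without testosterone 0 were higher and 26 lower. DDX21, a nucleolar helicase, averaged 10.80 in siPIAS1 cells and 12.11 in siSCR cells, both with testosterone, a fall of 1.31 ± 0.13 (limma adjusted p = 9.26e-06). NOP16 fell by 1.27 ± 0.13, WDR12 by 1.17 ± 0.12 and RRS1 by 1.04 ± 0.09. Small nucleolar RNAs, which guide modification of ribosomal RNA, had 2 of 124 higher and 77 lower (2 and 70 without replicate 3), with a median of -0.47, and 1 higher and 62 lower without testosterone. These are short transcripts that often lie in introns of other genes, and the part of their host genes in these signals was not tested. Purine and pyrimidine synthesis genes had 2 of 22 higher and 13 lower, also without replicate 3, and PPAT, the first enzyme of purine synthesis, fell by 1.24 ± 0.12. Of 18 cytosolic tRNA synthetases 1 was higher and 6 lower, and of 79 mitochondrial ribosomal proteins 6 were higher and 22 lower. Called were 38.9% and 35.4% of them, against 33.5% of all genes.

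Of 35 histone genes 21 were higher and 3 lower (21 and 1 without replicate 3), with a median of 0.54, and 7 were higher and 4 lower without testosterone. H2BC21 was at 11.88, 11.83 and 11.94 in siPIAS1 cells with testosterone, against 10.63, 10.53 and 10.51 in siSCR cells with testosterone, and differed by 1.37 without testosterone. H2AC18 rose by 1.57 ± 0.12 and differed by 0.39 without testosterone. Histone genes have close copies, and signals of single copies may mix. Of 8 genes with UGT1 or UGT2 symbols 6 were higher and 0 lower, with a median of 2.03. Without testosterone 5 were higher and 1 lower, with a median of 0.64. UGT2B28, which passed the detection filter only through siPIAS1 cells with testosterone, is among the 6, so the count is not read as support. S100P, a calcium-binding protein, was at 10.01, 9.78 and 9.99 in siPIAS1 cells with testosterone against 7.42, 7.56 and 7.44 in siSCR cells with testosterone, a rise of 2.45 ± 0.10 (limma adjusted p = 1.72e-09). ANXA2, which binds membranes and S100 proteins, fell by 1.06 ± 0.12 with testosterone and was 0.48 higher without it. The single genes named in these observations were chosen after their values were seen and were not followed through the other settings. Of 324 genes with ZNF symbols 25 were higher and 53 lower, 24.1% called against 33.5% of all genes.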
